A study of Mus musculus with 6 samples.

Results

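The creatine cycle genes were read across 6 bulk RNA-seq libraries of newborn mouse interscapular brown fat, the brown adipose depot between the shoulder blades. They were taken as the rows of the deposited expression table whose symbol was Gatm, Gamt, Slc6a8, Ckb, Ckmt1, Ckmt2 or Alpl, and all 7 were found among 19241 genes. The 3 WT libraries came from newborn mice with a floxed Fstl1 gene. The 3 KO libraries came from newborn Myf5-Fstl1 KO mice, in which Fstl1, the gene of the secreted glycoprotein follistatin-like 1, is deleted in the Myf5 lineage. The labels name no Cre allele, strain or sex, and do not say whether animals were pooled. Myf5 marks precursors of skeletal muscle as well as of interscapular brown fat, so both tissues belong to the targeted lineage, and the whole depot was taken without separating its cells.

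Creatine is made in 2 steps: Gatm joins the amidino group of arginine to glycine, and Gamt methylates the product with S-adenosylmethionine. Slc6a8 carries creatine into cells, and creatine kinases move phosphate between ATP and creatine. In the creatine cycle of thermogenic fat, phosphocreatine is made and then hydrolysed without useful work, so that ADP is returned to respiration and heat is released independently of Ucp1, the uncoupling protein of brown fat. Ckb is the cytosolic brain-type kinase that has also been placed in mitochondria of thermogenic fat, Ckmt1 and Ckmt2 are the ubiquitous and the sarcomeric mitochondrial kinases, and Alpl, the tissue-nonspecific alkaline phosphatase, can hydrolyse phosphocreatine. Ckm, the muscle cytosolic kinase, is not one of the 7 and is given for comparison.

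On the mouse assembly GRCm38.p6, of which mm10 is the browser name, Gatm lies on chromosome 2 from 122594473 to 122611277 and Ckmt1 on the same chromosome from 121357773 to 121363737. Gamt lies on chromosome 10 from 80258151 to 80261025, Alpl on chromosome 4 from 137741731 to 137796384 and Slc6a8 on chromosome X from 73673133 to 73682502. Ckb lies on chromosome 12 from 111669355 to 111672338 and Ckmt2 on chromosome 13 from 91853386 to 91876923. A RefSeq promoter window was matched for 6 of the 7 genes. The 250 bases before a RefSeq transcript start are shown for Ckb, the member whose WT and KO values were the only ones not to overlap, and for Ckmt2 and Ckm, whose levels varied together between libraries. They read 5′ to 3′ in the direction of the gene, and capitals mark 3 short motifs that were searched on both strands. The Ckmt2 window precedes a start inside the gene's span given above and overlaps that span by 38 bases.
Ckb, chr12:111672339-111672588, minus strand: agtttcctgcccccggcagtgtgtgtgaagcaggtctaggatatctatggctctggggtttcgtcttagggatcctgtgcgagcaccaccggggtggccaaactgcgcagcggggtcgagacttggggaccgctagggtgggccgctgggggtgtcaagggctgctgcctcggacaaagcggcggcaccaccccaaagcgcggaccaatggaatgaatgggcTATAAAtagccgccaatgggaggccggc
Ckmt2, chr13:91876886-91877135, minus strand: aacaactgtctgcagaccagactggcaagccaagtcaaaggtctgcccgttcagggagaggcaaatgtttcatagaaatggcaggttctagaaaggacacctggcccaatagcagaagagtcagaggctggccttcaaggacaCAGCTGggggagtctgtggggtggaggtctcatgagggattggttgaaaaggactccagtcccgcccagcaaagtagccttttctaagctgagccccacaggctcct
Ckm, chr7:19410844-19411093, plus strand: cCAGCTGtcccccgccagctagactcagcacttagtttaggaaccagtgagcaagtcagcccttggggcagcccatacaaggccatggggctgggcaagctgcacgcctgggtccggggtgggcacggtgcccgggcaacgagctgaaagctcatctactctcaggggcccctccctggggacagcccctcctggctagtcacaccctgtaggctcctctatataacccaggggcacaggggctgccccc
The Ckb window holds TATAAA, the core of a TATA box, beginning 28 bases before the start, a motif present in 12.4% of the 32851 promoter windows of this length. The Ckmt2 window holds CAGCTG, an E-box that reads the same on both strands and that myogenic factors can bind, beginning 107 bases before the start. The Ckm window holds it too, beginning 249 bases before the start, and so do 13.0% of all windows. Among the other members it also stood in an Alpl window, beginning 176 bases before the start. AAGGTCA, the half-site of estrogen-related receptors, was in none of these 3 windows, in a Ckmt1 window and in 4.08% of all windows. The Ckmt2 window held 2 CpG dinucleotides against 16 in the Ckb window. These are letters in a window; no binding was measured.

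The libraries differed in 2 ways that touch these genes. Xist was at 44.8 to 85.5 FPKM (fragments per kilobase of a transcript and per fixed number of mapped fragments) in WT and at 0.05 to 0.92 FPKM in KO, while the Y-linked gene Eif2s3y was at 83.7 to 99.3 FPKM in KO and at most 0.08 FPKM in WT. Sex, as read from these transcripts, therefore coincided with genotype, and the 2 cannot be told apart in any difference below. KO replicate 1 held much less skeletal muscle RNA: the FPKM of 22 muscle markers summed to 422 in it, against 1589 to 2306 in the other 5 libraries. Fstl1 was at 54.4 to 130.04 FPKM in WT and 7.93 to 13.1 FPKM in KO, and 18 brown adipocyte markers summed to 23247 to 30266 FPKM in WT and 23241 to 25249 FPKM in KO. Of these 18, 13 were below 0 and 5 above. Where 2.21% of all tested genes passed the test described below, 4 of the 18 did, all lower. That count fell to 0 without WT replicate 2 or WT replicate 3 and to 1 without KO replicate 2 or KO replicate 3, and was 0 with no filter on low values. The 10 macrophage markers summed to 139 to 208 FPKM in WT and 199 to 273 FPKM in KO, with 10 above 0. None passed the threshold (0 of 10), and 5 of the 10 had an unadjusted p under 0.05 in limma, against 19.2% of all tested genes. The whole-read steps of low genes put the depth at 13700000 to 15050000 reads per library.

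Against this background the creatine cycle genes were modestly expressed. Values by library are given in the order of replicates 1, 2 and 3 throughout. Ckb was the highest member, with means of 15.6 ± 6.47 FPKM in WT and 7.96 ± 0.649 FPKM in KO (SD, n = 3 each). It was followed by Ckmt2, Gamt, Slc6a8, Gatm and Alpl, with Ckmt1 last, and the order of the means was the same in both groups. In WT the values of Ckb, Ckmt2 and Gamt overlapped from 1 gene to the next, as did those of Slc6a8 and Gatm. In KO the first 3 again overlapped, as did Gatm and Alpl, while Slc6a8 stood apart from its neighbours. The 7 genes together summed to 34.2, 51.2 and 44.0 FPKM in WT replicates 1, 2 and 3 and to 25.0, 32.3 and 33.7 FPKM in KO replicates 1, 2 and 3. Every KO sum lay below every WT sum, although WT replicate 1 and KO replicate 3 differed by little. On the same per-length scale Ucp1 alone was 120 to 142 times the sum of the 7 genes in WT, and 116, 52.5 and 107 times in KO replicates 1, 2 and 3.

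**Figure D1:**
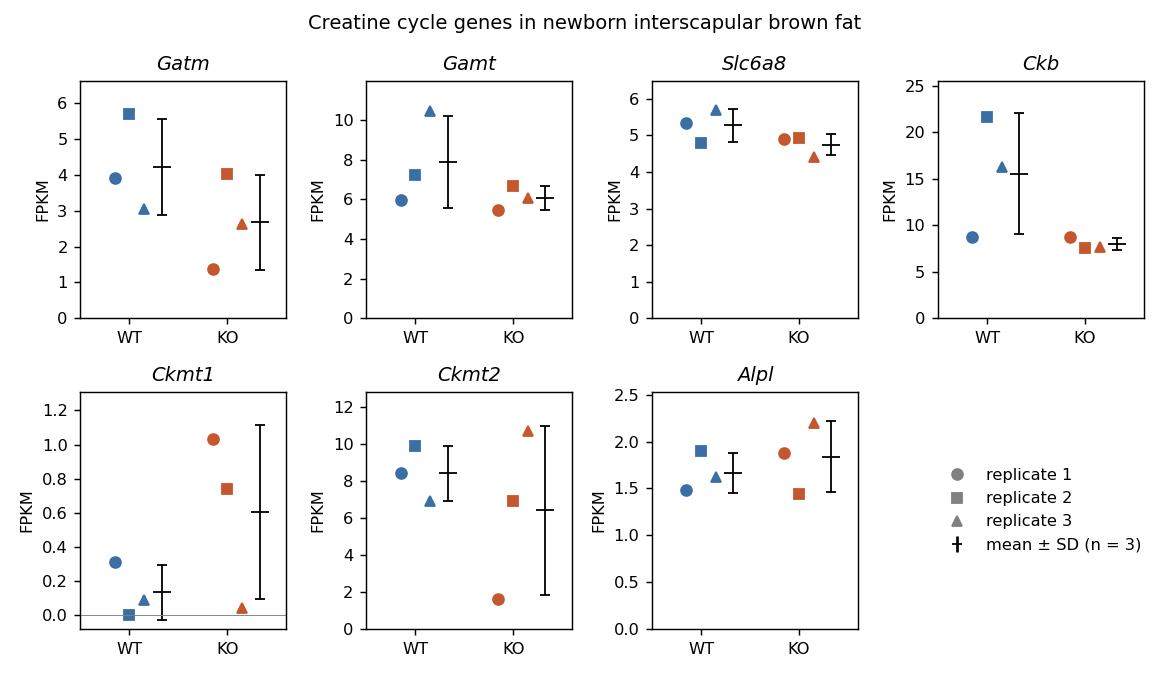
FPKM of the 7 creatine cycle genes in each library (circle, square and triangle for replicates 1, 2 and 3), with the mean and SD of each group beside the points. Only in Ckb do WT and KO not overlap, with WT replicate 1 at 8.78 FPKM close to KO replicate 1 at 8.71 FPKM.

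Of the 7 genes, 6 averaged 0.5 FPKM or more and were tested, and Ckmt1 did not. KO was compared with WT across 13331 genes with limma on log2(FPKM + 1), a scale that understates the changes of low genes. No creatine cycle gene passed an adjusted p of 0.05 (0 of 6), where limma called 2.21% of all tested genes, 1.01% as lower and 1.21% as higher in KO. At an unadjusted p under 0.05 there was 1 of 6, Ckb, against 19.2% of all tested genes. Fitted values were below 0 for 5 of the 6, with a median log2 fold change of −0.42 beside 0.01 over all tested genes. Without KO replicate 1, the library poor in muscle RNA, 4 of the 6 were below 0 and the median was −0.19. The groups did not overlap in 1 of the 6, lower in KO, where 24.9% of all tested genes did not overlap, 11.4% with KO lower. For 6 genes the counts called, under the unadjusted threshold and not overlapping lie near the shares of the whole table. No such share was taken for fitted values below 0.

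**Figure D2:**
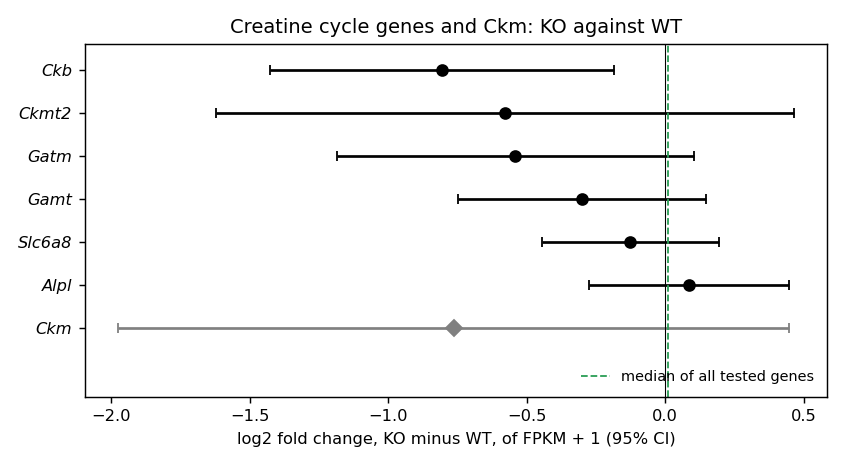
Log2 fold change, KO minus WT, of log2(FPKM + 1) for the 6 tested creatine cycle genes (circles) and Ckm (diamond), with 95% confidence intervals from limma; the dashed line is the median of all tested genes. The interval of Ckb, from −1.43 to −0.18, is the one that leaves out 0 before adjustment, and the intervals of Ckmt2 and Ckm are the widest.

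For synthesis, Gatm (Entrez gene 67092), the mitochondrial first enzyme, was at 3.9, 5.69 and 3.06 FPKM in the WT libraries against 1.38, 4.02 and 2.62 FPKM in the KO libraries. The groups overlapped, and KO replicate 1 was the lowest library. The KO mean was 63.4% of the WT mean, with a log2 fold change of −0.54 and a 95% interval of −1.18 to 0.10 (limma, adjusted p 0.342). Its lowest value also came from the muscle-poor library, and without KO replicate 1 the difference narrowed to −0.26 (limma, adjusted p 0.669). What muscle content contributed to this difference was not tested.

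Gamt (14431), the methyltransferase that completes synthesis, was at 5.95, 7.22 and 10.43 FPKM in the WT libraries against 5.45, 6.66 and 6.07 FPKM in the KO libraries. WT replicate 3 stood above the other 5 libraries, which lay between 5.45 and 7.22 FPKM. The log2 fold change was −0.30 with an interval of −0.75 to 0.15 (limma, adjusted p 0.445), and without WT replicate 3 it was −0.10 (limma, adjusted p 0.808). Spread among KO libraries was small for this gene, with an SD of 0.605 FPKM against 2.31 FPKM in WT.

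For uptake, Slc6a8 (102857), the creatine transporter, was at 5.33, 4.8 and 5.7 FPKM in the WT libraries against 4.9, 4.93 and 4.42 FPKM in the KO libraries. It was the steadiest member, with a coefficient of variation of 8.57% in WT and 6.02% in KO. The fitted log2 difference was −0.13 (limma, adjusted p 0.672). Its 95% interval runs from a KO level of 0.735 times to 1.14 times that of WT on the FPKM + 1 scale, so a change of 2-fold in either direction lies outside it. Slc6a8 is X-linked, and WT libraries carried Xist where KO libraries carried Y-linked transcripts; a dosage difference and a genotype difference cannot be told apart here.

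For phosphorylation, Ckb (12709) showed the largest difference among the 6. It was at 8.78, 21.68 and 16.21 FPKM in the WT libraries against 8.71, 7.54 and 7.64 FPKM in the KO libraries. The 3 KO libraries lay between 7.54 and 8.71 FPKM, whereas WT replicates 2 and 3 were high and WT replicate 1 was at the KO level. The KO mean was 51.2% of the WT mean. On the log2 scale the difference was −0.80 ± 0.27 (standard error; limma, unadjusted p 0.0168, adjusted p 0.162), and the exact two-sided permutation test gave 0.1, the smallest p that 3 libraries against 3 allow. The call depended on WT replicate 1: with that library left out Ckb passed at −1.14 (limma, adjusted p 0.0325), and with WT replicate 2 left out it was at −0.54 (limma, adjusted p 0.439). By the estimated depth these values rest on about 159 to 464 reads per library, so counting error is small beside the spread of WT.

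Skeletal muscle markers summed to 1589, 2306 and 1822 FPKM in WT, the same order of libraries as Ckb. In KO they summed to 422, 1738 and 2046 FPKM, and the library with the least muscle RNA had the highest Ckb of the 3. The part of skeletal muscle content in the Ckb difference was not tested. Smooth muscle also carries brain-type creatine kinase. The 10 smooth muscle and pericyte markers summed to 166, 217 and 196 FPKM in WT and to 134, 159 and 156 FPKM in KO. Of these, 10 of 10 had a log2 fold change below 0, with a median of −0.35, and 1 passed in limma: Cspg4, a pericyte proteoglycan, fell from 4.64, 6.62 and 6.71 FPKM to 3.36, 1.62 and 1.45 FPKM (log2 fold change −1.19, limma, adjusted p 0.0435). That call was lost in 4 of the 6 fits that each left out 1 library, with adjusted p up to 0.183 in limma. Des, 1 of the 10 smooth muscle and pericyte markers, is also counted among the skeletal muscle markers. The smooth muscle sum is therefore not a reading separate from skeletal muscle. By replicate, Des contributed 35.63, 47.76 and 37.95 FPKM to the WT sums. Its KO contributions were 16.89, 36.8 and 46.59 FPKM, lowest in KO replicate 1. No sum without Des was taken. As in Ckb, WT replicate 1 had the lowest smooth muscle and pericyte sum in WT. The part of smooth muscle content in the Ckb difference was not tested. In bulk tissue, fewer cells of a type and less RNA per cell cannot be told apart. Brain-type creatine kinase is also a gene of neural tissue. The 12 neural and Schwann cell markers summed to 78.6, 75.9 and 73.7 FPKM in WT and to 68.9, 86.0 and 59.5 FPKM in KO. Of the 7 tested, 6 were below 0, with a median of −0.06, and 0 passed in limma (0 at an unadjusted p under 0.05). The neuronal genes Tubb3, Nefl, Nefm and Snap25 were each at no more than 0.22 FPKM in any library. Myelin and glial genes were expressed: Pmp22 was at 36.9 to 59.1 FPKM, S100b at 11.7 to 19.8 FPKM and Mbp at 3.61 to 6.57 FPKM. Their part in the Ckb difference was not tested.

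Ckmt1 (12716), the ubiquitous mitochondrial kinase, was at 0.31, 0 and 0.09 FPKM in the WT libraries against 1.03, 0.74 and 0.04 FPKM in the KO libraries. KO replicates 1 and 2 were above every WT library and KO replicate 3 was not. The values correspond to about 7.1, 0 and 2.1 reads in WT and to 22.2, 17.3 and 0.9 reads in KO. In WT replicate 2 the value of 0 allows up to 0.127 FPKM, the worth of 3 reads, and this covers counting error only. The exact permutation test gave p 0.3, and no fold is given at this depth.

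Ckmt2 (76722), the sarcomeric mitochondrial kinase, was at 8.42, 9.93 and 6.93 FPKM in the WT libraries against 1.63, 6.94 and 10.73 FPKM in the KO libraries. KO held both the lowest and the highest library. The log2 fold change was −0.58 with an interval of −1.62 to 0.46 (limma, adjusted p 0.530), and without KO replicate 1 it turned to 0.05 (limma, adjusted p 0.947). Ckm (12715) was likewise lowest in KO replicate 1, at 98.6, 150.2 and 127.8 FPKM in the WT libraries against 25.2, 101.4 and 146.4 FPKM in the KO libraries. Its log2 fold change was −0.76 (limma, adjusted p 0.474), and −0.02 without KO replicate 1 (limma, adjusted p 0.977). Of the 21 muscle markers tested, 20 were below 0 with a median of −0.58 and 0 passed in limma (2 at an unadjusted p under 0.05). Without KO replicate 1 the median of these 21 markers was 0.04, with 9 below 0.

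Within a library Ckmt2 kept a narrow ratio to muscle transcripts. It was 8.54, 6.61 and 5.42% of the Ckm level in WT and 6.46, 6.84 and 7.33% in KO, although Ckm itself differed 5.95-fold between the highest and the lowest library. Against the summed muscle markers Ckmt2 was 0.380 to 0.530% in WT and 0.386 to 0.524% in KO, so the 2 groups covered almost the same range. The muscle-poor KO replicate 1 lay inside that range in both ratios.

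**Figure D3:**
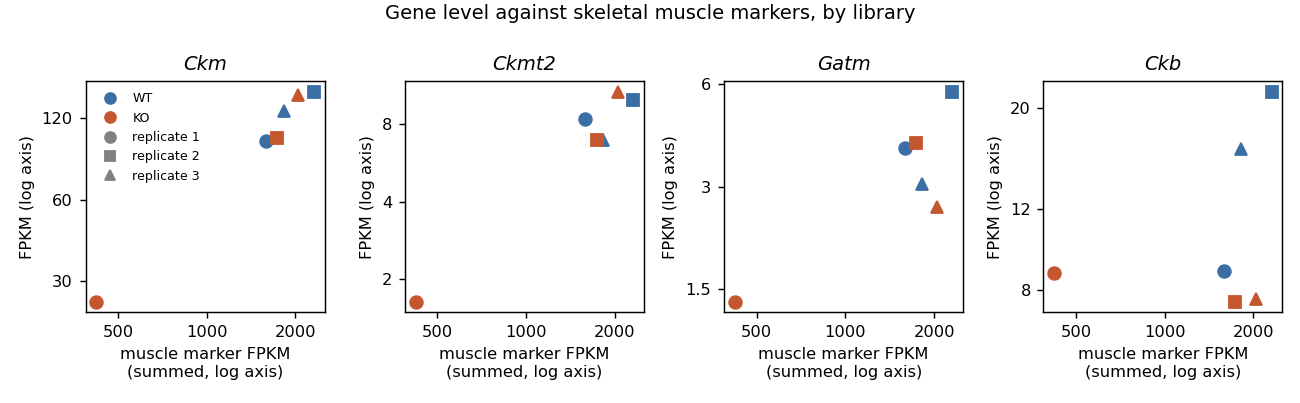
FPKM of Ckm, Ckmt2, Gatm and Ckb in each library against the summed FPKM of 22 skeletal muscle markers, both axes logarithmic, blue for WT and orange for KO, with a marker shape per replicate. Ckm and Ckmt2 are lowest in KO replicate 1, where muscle markers sum to 422 FPKM, and Ckb is not.

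The isoenzymes can be added within a library because FPKM is per length. The 4 creatine kinase genes summed to 116, 182 and 151 FPKM in WT and to 36.6, 117 and 165 FPKM in KO. Ckm made up 82.6 to 84.9% of that sum in WT and 69.0, 87.0 and 88.8% in KO replicates 1, 2 and 3. Ckb made up 7.56, 11.9 and 10.7% in WT and 23.8, 6.46 and 4.64% in KO. In KO replicate 1 the Ckb share was the highest while Ckm was the lowest of the 6 libraries, and the FPKM of Ckb there was no higher than in WT replicate 1. Ckmt2 made up 4.59 to 7.25% in WT and 4.45 to 6.51% in KO. The groups overlapped in every share. Exact two-sided permutation tests, adjusted over the 4 shares, gave a p of 1 for each, but with 3 libraries against 3 no unadjusted p could go below 0.1, so no share could have passed. Without KO replicate 1 the difference in the Ckb share, KO minus WT, turned from 1.55 to −4.53 percentage points. With Ckm left out of the sum, Ckb held 50.1, 68.6 and 69.8% in WT and 76.6, 49.5 and 41.5% in KO. Ckmt2 held 48.1, 31.4 and 29.8% in WT and 14.3, 45.6 and 58.3% in KO. Ckmt1 held the remainder, at most 1.77% in WT and 9.06, 4.86 and 0.217% in KO.

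**Figure D4:**
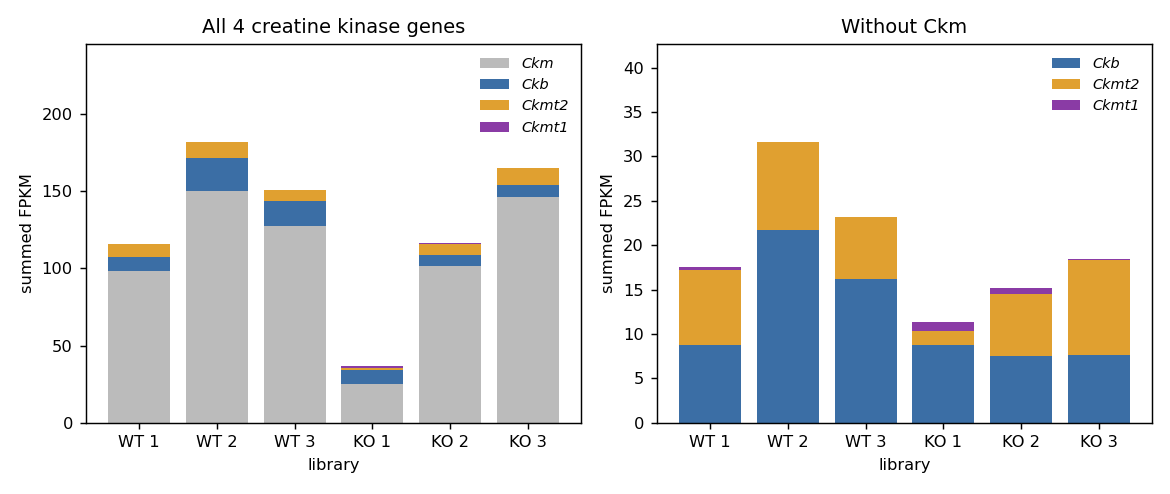
Summed FPKM of the creatine kinase genes in each library, stacked by gene, with all 4 genes on the left and without Ckm on the right. Ckm fills most of each bar on the left, and the Ckb part on the right is largest in WT replicates 2 and 3, at 21.68 and 16.21 FPKM.

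For hydrolysis, Alpl (11647) was low, at 1.48, 1.9 and 1.62 FPKM in the WT libraries against 1.88, 1.44 and 2.2 FPKM in the KO libraries. The groups overlapped fully, and the log2 fold change was 0.09 with an interval of −0.28 to 0.45 (limma, adjusted p 0.820). Its sign was not stable: without KO replicate 3 it was −0.01. Bone and neutrophils are known sources of alkaline phosphatase. Bone and cartilage markers were near absent, their 10 genes summing to 1.79 to 2.95 FPKM, with Bglap, the osteocalcin gene, at 0 in 5 of 6 libraries. Neutrophil markers summed to 137, 155 and 215 FPKM in WT and to 219, 379 and 162 FPKM in KO. Most of each sum was S100a8, at 39.34 to 115.7 FPKM, and S100a9, at 73.05 to 205.71 FPKM. Ly6g, Elane and Mpo were low, at no more than 0.66, 0.92 and 0.64 FPKM in any library. Of the 7 neutrophil markers tested, 5 were above 0 and 2 below, and 1 passed in limma, higher in KO. With any 1 library left out, 0 passed. KO replicate 2 had the highest sum and the lowest Alpl. The part of bone or neutrophil content in the Alpl values was not tested. Phospho1, a phosphatase of phosphocholine and phosphoethanolamine, was far more abundant than Alpl, at 62.3 to 123.4 FPKM in WT and 59.6 to 123.2 FPKM in KO.

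Leaving out each library in turn showed which members rested on single libraries. Gatm, Gamt, Slc6a8 and Ckb stayed below 0 in all 6 of these fits, Ckb between −1.14 and −0.54 and Gatm between −0.80 and −0.26. Ckmt2 was at −1.03 when KO replicate 3 was dropped and at 0.05 when KO replicate 1 was. Slc6a8 moved least, between −0.18 and −0.08.

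**Figure D5:**
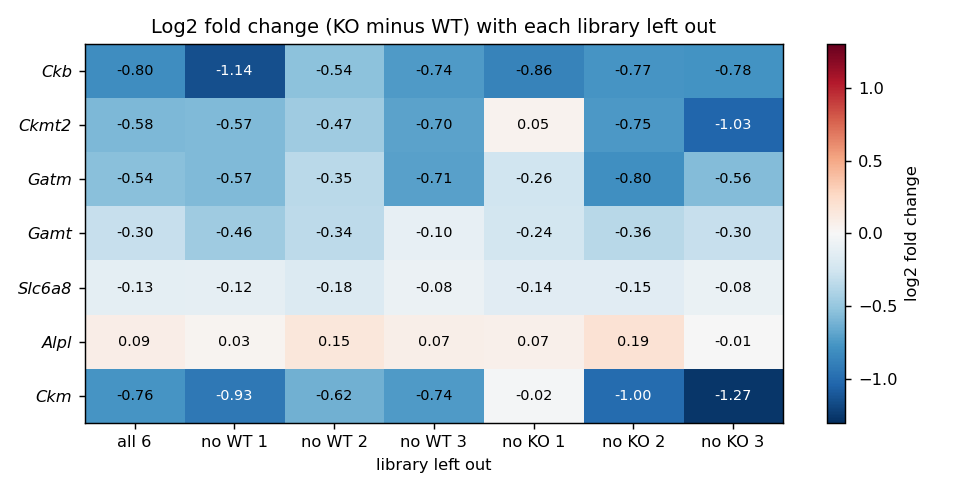
Log2 fold changes, KO minus WT, of the 6 tested creatine cycle genes and Ckm with all 6 libraries and with each library left out; colour and printed value give the same number. The columns to compare are those without WT replicate 1, where Ckb is at −1.14, and without KO replicate 1, where Ckmt2 is at 0.05 and Ckm at −0.02.

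The genes whose levels ran most like each member were ranked by the Pearson correlation of log2(FPKM + 1) over the 6 libraries, among 8373 other genes averaging 5 FPKM or more. With so few libraries and so many genes, high values arise readily, and they are given as a description. Ckmt2 ran closest to Ldb3 (r 0.999), Myot (0.994) and Atp2a1 (0.988), which encode a Z-disc protein, myotilin and the fast-muscle calcium pump. Over the 5 libraries other than KO replicate 1 these values were 0.985, 0.943 and 0.880. Ckb ran closest to Spns1 (r 0.995), a lysosomal lipid transporter gene, Rsu1 (0.994) and Itga7 (0.992), an integrin subunit gene. Itga7 was at 9.19, 17.47 and 13.84 FPKM in the WT libraries against 8.87, 7.6 and 7.21 FPKM in the KO libraries. WT replicate 1 was near the KO level here too, which choosing genes by their likeness to Ckb favours. Gamt ran closest to Psmb4 (r 0.999), a proteasome subunit gene, then Wdr83os (0.991) and Cxx1a (0.989). Slc6a8 ran closest to Vdac1 (r 0.986), the gene of a mitochondrial outer membrane channel, then Scnm1 (0.985) and Nr4a2 (0.980).

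Around the cycle, 3 lists of neighbouring genes were read in the same fit. The first held 15 other creatine and phosphagen genes (adenylate kinases, adenine nucleotide carriers, outer membrane channels, phosphatases and Ckm). Of these, 12 were tested and 0 passed in limma, with 0 at an unadjusted p under 0.05, against 19.2% of all tested genes. In that list 11 were below 0 and 1 above, with a median log2 fold change of −0.24. The smallest p belonged to Ak6, an adenylate kinase, at 19.97 to 20.56 FPKM in WT and 15.1 to 18.3 FPKM in KO (log2 fold change −0.30, limma, adjusted p 0.270). Ak6 was among the 5 of 12 whose groups did not overlap, where 24.9% of all tested genes did not.

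Of 18 genes found for the supply of arginine, glycine and ornithine, 15 were tested, with 10 below 0, 5 above and a median of −0.31. None passed in limma (0 of 15), with 6 at an unadjusted p under 0.05, against 19.2% of all tested genes. Nearest to the threshold was Slc7a2, a carrier of cationic amino acids including arginine, at 2.78, 1.81 and 1.82 FPKM in the WT libraries against 5.25, 4.41 and 3.88 FPKM in the KO libraries (limma, log2 fold change 0.82, adjusted p 0.0533). It passed in 1 of the 6 fits that each left out 1 library, without WT replicate 1 (limma, 0.96, adjusted p 0.0415), and in the other 5 the adjusted p ran up to 0.208. Psat1, an enzyme of serine synthesis, which precedes glycine, was at 21.18, 18.14 and 13.63 FPKM in the WT libraries against 6.94, 10.79 and 9.68 FPKM in the KO libraries (limma, −0.88, adjusted p 0.0655). Both genes were among the 9 of 15 whose groups did not overlap, where 24.9% of all tested genes did not.

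The last list held 14 genes of other heat-producing cycles that do not need Ucp1. Most belong to calcium cycling through the sarcoplasmic reticulum or to the making and breaking of triglyceride, and Pm20d1 and Gpd2 to neither. Of the 14, 13 were tested, with 12 below 0, 1 above and a median of −0.54. None passed in limma (0 of 13), with 5 at an unadjusted p under 0.05, against 19.2% of all tested genes. The smallest p belonged to Atp2a3, a calcium pump gene, at 4.7, 6.73 and 5.06 FPKM in the WT libraries against 3.55, 2.85 and 3.94 FPKM in the KO libraries (limma, −0.54, adjusted p 0.142). Next was Gk, glycerol kinase, at 161.7, 93.8 and 78.4 FPKM in the WT libraries against 55, 44.5 and 78.1 FPKM in the KO libraries (limma, −0.87, adjusted p 0.150). Some of this list are muscle genes: Atp2a1 and Sln were both lowest in KO replicate 1, at 6.35 and 6.87 FPKM, against at least 23.9 and 28.7 FPKM elsewhere.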

How the data were processed

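RNA from whole interscapular brown fat was sequenced in 6 libraries, grouped and numbered by their titles. The authors deposited FPKM values per gene, per the file headers. HISAT2 2.0.4, Bowtie2 2.2.5, DESeq2 and the build mm10 are named in the submitters' processing notes, without their roles; the counting tool and strand handling are not given in the sources used here. FPKM are not counts, so log2(FPKM + 1) was fitted, for genes averaging 0.5 FPKM or more, with limma 3.58.1 in R 4.3.3 (eBayes with trend, Benjamini-Hochberg over 13331 genes, threshold 0.05), after the code was tested on simulated data. Depth was estimated from whole-read steps of low FPKM in single-transcript genes of 500 to 1300 nt, with a length offset of 50 nt: 78.9 to 83.3% of values lay within 0.2 of a whole read, against 43.7 to 46.5% with shuffled lengths. Positions and promoter letters are from RefSeq on GRCm38.p6, in which 19202 genes (99.8%) matched. Named were all members, Ckm, genes of each pathway list past the threshold or else the 2 with the smallest p, and for members at 5 FPKM or more the 3 closest patterns; Cspg4, Itga7's values, Phospho1, Atp2a1, Sln and single markers were named after their values were seen. Some results these rules would name, and 1 pathway list, are not reported here. Members and lists were chosen with earlier results of these data known. Nothing says that libraries of a group came from separate animals, so p-values measure the spread between these libraries.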

Additional observations from a re-analysis of the deposited data

How the results depend on the processing

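The 295 genes called over the whole table became 35 with no filter, 191 with a common sum and 3181 with array weights (whose estimation stopped before its convergence tolerance was met), and ran from 31 to 370 when each library was left out. WT and KO share replicate numbers, which the main fit did not take as pairs. Deviations of libraries with the same number correlated at 0.068, 0.043 and 0.043. Without the values for different numbers beside them, these cannot decide whether the numbers are pairs. With the replicate block 167 genes were called and 0 members. Of the creatine cycle genes 2 passed with array weights, Ckb (−1.22) and Gatm (−1.03), where WT replicate 2 counted most (weight 6.70), and 0 to 1 passed without 1 library, the 1 being Ckb. Ckb kept its sign in all 18 alternatives (limma, adjusted p 0.00469 to 0.439). The filters, the eBayes options and the replicate block cannot move its estimate, so its sign there was fixed in advance. Alpl reversed with array weights (−0.012) and ran from −0.0055 (without KO replicate 3, where it reversed) to 0.190 without 1 library, and Ckmt2 ran from −1.03 to 0.046 (without KO replicate 1, where it reversed). Leaving out each library gave differences in share, KO minus WT, of −4.53 to 5.05 points for Ckb, −6.10 to 3.84 for Ckm and −0.72 to 0.61 for Ckmt2; without Ckm in the sum they were −6.95 for Ckb and 2.96 for Ckmt2, a reversal that follows from the changed sum. The replicate block left all 4 differences as they were, as it must where each replicate number holds 1 library of each group. Of the genes of arginine, glycine and ornithine supply, 0 to 1 passed without 1 library. Under every scaling the median of all genes stayed within 0.1 of that reported. For the remaining shifts the cause was not tested.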
